A study of Mus musculus with 10 samples.

Results

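Haemoglobin and red cell genes were followed across whole-lung RNA of wild-type and p53-null mice as a gauge of the blood on each array. The set comprised 9 genes chosen by their function, among them the globins Hba-a1 and Hbb-b1, the globin chaperone Ahsp, the haem enzyme Alas2, the red cell membrane genes Slc4a1 and Epb4.2, and the transcription factors Gata1 and Klf1. They were represented by 14 of 41174 non-control probes and are 9 of 27670 genes on the array. Ahsp is carried in the files under its older symbol Eraf, Epb4.2 is now Epb42, and the accession of the Hbb-b1 probes is now assigned to Hbb-bt. Of the 9 genes, 8 were well above background on at least 5 of the 10 arrays and could be tested.

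All mice were 8-week-old C57BL/6J males that inhaled aerosolized saline for 30 min before the lung was taken. The 5 wild-type mice were compared with 5 p53-null mice, which lack the tumour suppressor p53 encoded by Trp53. The allele is not named in the labels, and no group without saline was included here. Each array held the Cy3-labelled cRNA of 1 mouse, described in the design as a biological replicate. Signals are given as multiples of the array's own 75th percentile, and differences on the log2 scale as the p53-null mean less the wild-type mean, ± the SE of the limma fit (n = 5 arrays in each group).

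Circulating red cells of the mouse have lost their nucleus but still carry messenger RNA, most of it globin, while they mature as reticulocytes. Alpha and beta globin join with haem to form haemoglobin, and Alas2 makes the first precursor of haem in erythroid cells. Gata1 and Klf1 switch these genes on in nucleated precursors, and Gata1 also acts in megakaryocytes, the source of platelets. In whole lung, which is perfused with blood, less blood in the sample and less RNA per cell cannot be told apart.

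The share of spots well above background ran from 71.4% to 84.0% over the arrays. It was highest (81.3% to 84.0%) on p53-null array 2 and wild-type arrays 3 and 4. These 3 came from a higher range of slide numbers, and p53-null array 2 shared its slide with wild-type array 4. Wild-type array 5 stood apart from its group. A Trp53 probe printed in 10 spots read -2.22 there on the log2 scale, between the other wild-type arrays (-1.67 to -1.43) and the p53-null arrays (-3.15 to -2.66). A second Trp53 probe, in 1 spot, read 1.24 there, above the other wild-type (-0.34 to 0.01) and the p53-null arrays (0.13 to 0.65). The genotypes differed by 0.31 ± 0.28 on this second probe (limma adjusted p = 0.504). On the first they differed by -1.28 ± 0.16 (limma adjusted p = 0.00589). Without wild-type array 5 the number of genes called rose from 1581 to 6619. Skeletal muscle genes were high on p53-null arrays 4 and 5 and on wild-type array 2.

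Hba-a1, Hbb-b1 and Alas2 varied together across the arrays, while Gata1 (r = -0.20) and Klf1 (r = -0.10) did not rise with alpha globin. The stretches of 150 bases before the annotated start of these 5 members are shown for that reason. They are from RefSeq on GRCm38.p6, read 5′ to 3′ on the gene's strand, and 6 of the 9 members had an entry; Slc4a1 and Ahsp are named only. Capitals mark GATAA (GATA factors), CACCC (KLF factors), CCAAT and TATAA, searched on both strands, and no matches overlapped. The windows are chr11:32283522-32283671 on the plus strand for Hba-a1, chr7:103813924-103814073 on the minus strand for Hbb-bt, chrX:150547267-150547416 on the plus strand for Alas2, chrX:7967911-7968060 on the minus strand for Gata1, and chr8:84901832-84901981 on the plus strand for Klf1.
Hba-a1: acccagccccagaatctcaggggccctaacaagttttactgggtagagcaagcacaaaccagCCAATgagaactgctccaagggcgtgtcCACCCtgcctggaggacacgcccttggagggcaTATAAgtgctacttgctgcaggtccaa
Hbb-bt: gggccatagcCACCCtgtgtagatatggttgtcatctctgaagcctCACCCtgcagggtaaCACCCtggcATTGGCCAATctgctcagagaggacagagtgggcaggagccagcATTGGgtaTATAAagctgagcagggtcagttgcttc
Alas2: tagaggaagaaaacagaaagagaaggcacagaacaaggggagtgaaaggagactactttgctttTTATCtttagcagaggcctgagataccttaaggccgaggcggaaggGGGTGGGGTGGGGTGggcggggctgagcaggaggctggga
Gata1: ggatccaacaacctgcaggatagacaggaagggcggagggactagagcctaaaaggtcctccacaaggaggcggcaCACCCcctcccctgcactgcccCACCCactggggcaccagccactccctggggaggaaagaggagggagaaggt
Klf1: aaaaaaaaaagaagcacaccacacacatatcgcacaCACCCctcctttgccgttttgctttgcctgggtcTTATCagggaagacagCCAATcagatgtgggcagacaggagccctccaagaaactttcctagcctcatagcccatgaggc

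CACCC lay in all 5 of these windows, which were chosen from 6. It was on the opposite strand in Alas2 and on the gene's own strand in the others. Counting a match on either strand, it was found in 37.4% of the 32851 RefSeq promoter windows of that length. The window of Epb4.2, the other member with an entry, held no CACCC and only TATAA, on the opposite strand at -125. Both globin windows held TATAA, with its first base at -27 in Hba-a1 and -28 in Hbb-bt counted from the start, against 14.2% of all windows. CCAAT was found in Hba-a1, Hbb-bt and Klf1 (24.5% of all windows), and GATAA on the opposite strand in Alas2 at -86 and Klf1 at -80 (13.3% of all windows). These matches describe letters and were not tested as binding sites.

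The globins were the brightest members, and their level differed many-fold between mice of the same genotype. Hba-a1, alpha globin, read 113.2, 122.0, 58.3, 20.8 and 124.9 times the array's 75th percentile on wild-type arrays 1 to 5. On p53-null arrays 1 to 5 it read 71.3, 7.33, 105.3, 111.5 and 45.2. The highest array was 17.0-fold above the lowest. The groups overlapped over nearly their whole range, and the lowest array of each genotype was the one on the shared slide. The difference was -0.58 ± 0.79 (limma adjusted p = 0.681). The probe lies on chromosome 11 from 32235785 to 32235966 in mm7, and a second probe at 32235937 to 32235996 ranged 17.1-fold. Hba-a1 has a near-identical copy, Hba-a2, whose RNA these probes may also bind.

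Hbb-b1, beta globin, was also lowest on p53-null array 2 and highest on wild-type array 5. Its brightest probe, on chromosome 7 from 99864305 to 99864363 in mm7, read 121.3, 131.9, 73.5, 26.6 and 179.8 on the wild-type arrays. The p53-null arrays read 103.7, 10.5, 131.3, 125.2 and 61.0. The groups again overlapped. The difference was -0.47 ± 0.75 (limma adjusted p = 0.731). The remaining 3 probes ranged 19.8- to 30.1-fold between arrays and differed by -0.65 to -0.54. Over all 6 globin probes the lowest correlation between any pair across the 10 arrays was 0.99. The beta globin genes are also near-identical copies, and the probes may not separate them.

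Together the 6 globin probes gave 0.67%, 0.727%, 0.362%, 0.138% and 0.839% of the summed probe signal on wild-type arrays 1 to 5. On the p53-null arrays they gave 0.475%, 0.0503%, 0.669%, 0.663% and 0.28%. Very bright spots were read by the scanner at a lower gain and scaled up, which applied to the main probes of both globins on all 10 arrays. No member probe was saturated on any array.

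Alas2, the erythroid enzyme that starts haem synthesis, varied more than the main probe of either globin. It read 5.52, 6.19, 2.13, 0.587 and 7.84 in wild-type lung and 3.92, 0.274, 5.74, 6.64 and 1.71 in p53-null lung. The range was 28.6-fold, with p53-null array 2 lowest and wild-type array 5 highest, as for the globins. The difference was -0.45 ± 0.98 (limma adjusted p = 0.808). Its probe, on chromosome X from 145329125 to 145329184 in mm7, was read at the lower gain on 4 arrays.

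Ahsp, which holds free alpha globin in solution until it pairs with beta globin, was measured well above background on all 10 arrays. The level was 0.0794, 0.0967, 0.0672, 0.0545 and 0.0757 on the wild-type arrays and 0.227, 0.0849, 0.248, 0.116 and 0.0927 on the p53-null arrays. P53-null arrays 1, 3 and 4 lay above every wild-type array, while arrays 2 and 5 lay within the wild-type range. The difference was 0.92 ± 0.32 and did not pass (limma adjusted p = 0.103).

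Slc4a1, the band 3 anion exchanger of the red cell membrane, read 0.209, 0.318, 0.113, 0.0968 and 0.384 in wild-type lung. It read 0.522, 0.126, 0.41, 0.385 and 0.165 in p53-null lung. The groups overlapped, with p53-null array 2 and wild-type arrays 3 and 4 lowest, and the difference was 0.52 ± 0.51 (limma adjusted p = 0.546). Its probe lies on chromosome 11 from 102457981 to 102458040 in mm7.

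Epb4.2, the band 4.2 protein that ties band 3 to the skeleton, was not tested. Each of its 2 probes was well above background on 1 array only, a wild-type array in both cases.

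Gata1 was the only one of the 8 tested members to pass the test, and it was higher in p53-null lung. Its probe, on chromosome X from 6392873 to 6392932 in mm7 and printed in 10 spots, was well above background on every array. It read 0.0262, 0.0327, 0.0218, 0.0416 and 0.0536 on the wild-type arrays. On the p53-null arrays it read 0.101, 0.0725, 0.0779, 0.058 and 0.0628, so every p53-null array lay above every wild-type array. The difference was 1.13 ± 0.25, or 2.19-fold (limma adjusted p = 0.0318). Among all genes tested, 7.49% were called in either direction, 4.59% higher and 2.89% lower. One member of 8 is read against that background.

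The Gata1 call rested on the full set of arrays. When each array was left out in turn it was lost in 9 of 10 fits, with adjusted p from 0.0521 to 0.0815, and kept without wild-type array 5 (limma adjusted p = 0.00321). The difference itself was 0.97 to 1.30 in those fits. Blocking on slide range gave 1.10 ± 0.27 (limma adjusted p = 0.0585), and within the lower range, 3 wild-type against 4 p53-null arrays, 1.03 ± 0.30 (limma adjusted p = 0.27). Within the higher range, with 1 p53-null array, it was 1.27, and on the shared slide the p53-null array was higher by 0.80.

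Klf1, the erythroid factor that activates beta globin, was dim. It was well above background on 3 wild-type and all 5 p53-null arrays. Wild-type arrays read 0.0052, 0.0137, 0.00788, 0.00854 and 0.0111, and p53-null arrays 0.0254, 0.0153, 0.0251, 0.00736 and 0.0137. P53-null arrays 4 and 5 lay within the wild-type range. The difference was 0.84 ± 0.37 (limma adjusted p = 0.174).

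**Figure D1:**
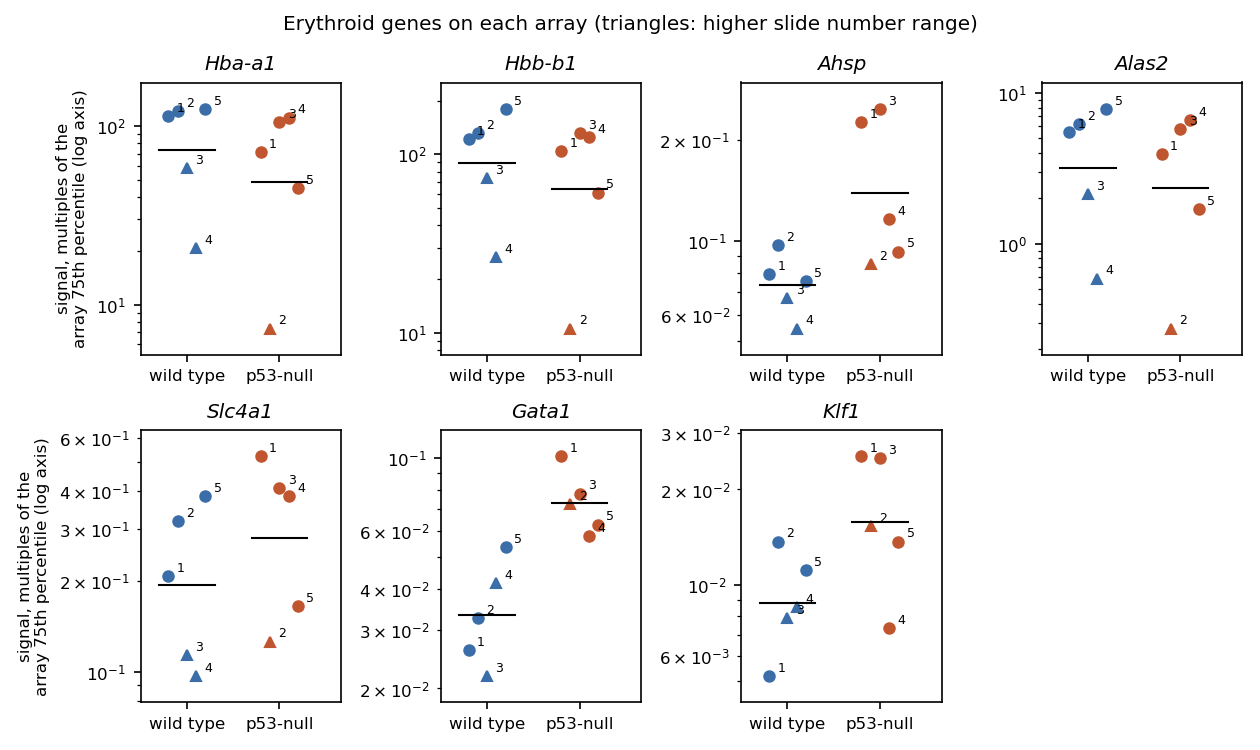
Signal of 7 tested erythroid genes on each array, as multiples of the array's 75th percentile on a log axis, with array numbers beside the points. Bars are the geometric mean of 5 arrays, and triangles are the 3 arrays of the higher slide number range. The globins and Alas2 overlap between genotypes and are lowest on p53-null array 2 and wild-type array 4, while the p53-null arrays of Gata1 (0.058 to 0.101) all lie above the wild-type arrays (0.0218 to 0.0536).

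Over the 8 tested members the median difference was 0.26, beside 0.05 over all genes tested. It was 0.04 without wild-type array 4 and 0.57 without p53-null array 2, and it was 0.0077 when blocking on slide range, -0.06 within the higher range and 0.04 within the lower. A score was formed per array as the mean of the members' log2 values after centring each on its mean over the 10 arrays. It was 0.02, 0.46, -0.53, -1.11 and 0.56 on wild-type arrays 1 to 5 and 0.77, -1.30, 0.90, 0.47 and -0.25 on p53-null arrays 1 to 5. The 3 lowest arrays were those of the higher slide number range, 2 of them wild-type and 1 p53-null.

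The slide number range moved with the red cell genes. On the log2 scale Hba-a1 was 2.18 higher in the lower than in the higher range, a 4.54-fold ratio, and Alas2 was 7.01-fold higher. The ratio was 4.27-fold for Hbb-b1, 2.88-fold for Slc4a1 and 1.77-fold for Ahsp, but 1.33-fold for Gata1 and 1.25-fold for Klf1. These ratios compare plain means of each range without a term for genotype, and the ranges differed in their mix of genotypes. The part of the slide range in these values was not tested. With the range as a block, the genotype difference was -1.07 ± 0.41 for Hba-a1 (limma adjusted p = 0.16), -0.93 ± 0.40 for Hbb-b1 (adjusted p = 0.194) and -1.07 ± 0.49 for Alas2 (adjusted p = 0.23). Within the lower range Hba-a1 differed by -0.61 ± 0.32 (limma adjusted p = 0.491). On the shared slide p53-null array 2 read lower than wild-type array 4 by 1.50 on the log2 scale for Hba-a1, 1.34 for Hbb-b1 and 1.10 for Alas2. Without p53-null array 2 the sign turned, to 0.10 for Hba-a1, 0.18 for Hbb-b1 and 0.32 for Alas2.

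The correlation with Hba-a1 differed in size among the members, and these differences were not themselves tested. Over the 10 arrays the correlation with Hba-a1 was r = 0.99 for Hbb-b1 (rho = 0.95) and r = 0.99 for Alas2 (rho = 0.94). Both had a two-sided permutation p of 2e-05, the smallest the resamples can give, and an adjusted p of 7e-05 over 7 relations; for rho the permutation p was 0.00024 and 0.00028, each adjusted to 0.00098. Without p53-null array 2 and wild-type array 4, the 2 arrays farthest from the Hba-a1 median, r was 0.95 and 0.98. Within the 7 arrays of the lower slide range r was 0.94 and 0.98. The higher range holds 3 arrays, too few for a value.

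Slc4a1 gave r = 0.71 (permutation p = 0.018, adjusted 0.0316) and rho = 0.56 (permutation p = 0.0951, adjusted 0.166). Its r fell to 0.58 without the same 2 arrays and was 0.42 in the lower range, so that relation rests in part on those arrays. Ahsp gave r = 0.34 (permutation p = 0.325, adjusted 0.455) and rho = 0.20 (permutation p = 0.582, adjusted 0.582), with r = 0.05 without the 2 arrays and -0.16 in the lower range. Gata1 gave r = -0.20 (permutation p = 0.611, adjusted 0.713) and rho = -0.27 (permutation p = 0.445, adjusted 0.582). Klf1 gave r = -0.10 (permutation p = 0.78) and rho = -0.21 (permutation p = 0.561). Without the 2 arrays r was -0.08 for Gata1 and -0.16 for Klf1, and in the lower range -0.47 and -0.34. After the genotype means were taken out, r was 0.68 for Ahsp and 0.84 for Slc4a1, and -0.02 and 0.05 for Gata1 and Klf1.

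**Figure D2:**
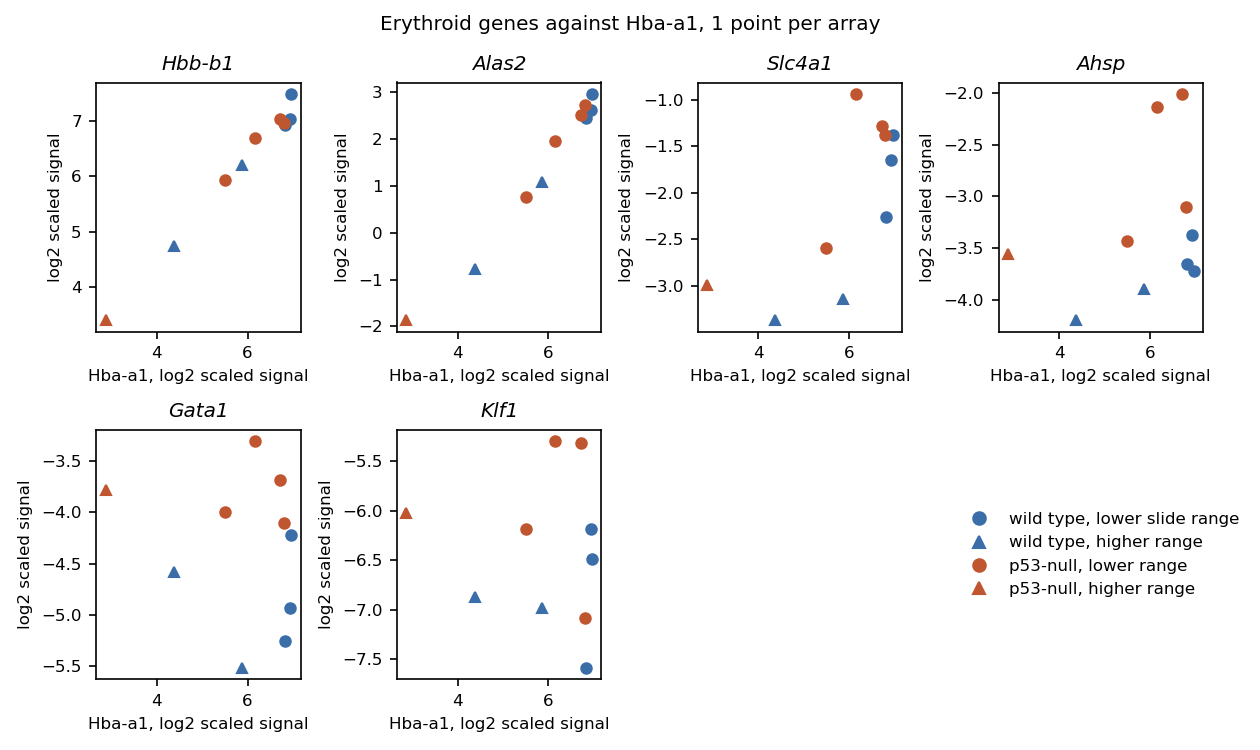
Log2 scaled signal of 6 erythroid genes against that of Hba-a1, 1 point per array, coloured by genotype and shaped by slide number range. Hbb-b1 and Alas2 rise along a line with Hba-a1 (r = 0.99 for both), Slc4a1 more loosely, and Gata1 (r = -0.20) and Klf1 (r = -0.10) scatter without one.

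A fit with both genotype and the Hba-a1 level of each array gave the slope of every gene on Hba-a1. The slope is the log2 change per log2 unit of Hba-a1. Of 21115 genes, 4 had a slope that passed (0.0189%), all of them positive. Hbb-b1 had a slope of 0.95 ± 0.04 and Alas2 of 1.23 ± 0.06 (limma adjusted p = 7.04e-05 for both). The transcript ENSMUST00000098674 had a slope of 0.85 (limma adjusted p = 0.0242). The slope of Slc4a1 was 0.54 ± 0.12 and did not pass (limma adjusted p = 0.971).

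With the Hba-a1 level in the fit, 2 of the 7 other members tested were higher in p53-null lung. Among all 21115 genes 692 were called higher, and 5.57% were called in either direction. Gata1 differed by 1.13 ± 0.27 (limma adjusted p = 0.0482). Ahsp differed by 1.08 ± 0.26 (limma adjusted p = 0.0482), against 0.92 ± 0.32 in the fit without it. Slc4a1 stood at 0.84 ± 0.30 (limma adjusted p = 0.117) and Klf1 at 0.85 ± 0.40 (limma adjusted p = 0.208). Hbb-b1 and Alas2 were at 0.08 ± 0.11 and 0.27 ± 0.15. The median over these 7 was 0.84, beside 0.04 over all genes.

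**Figure D3:**
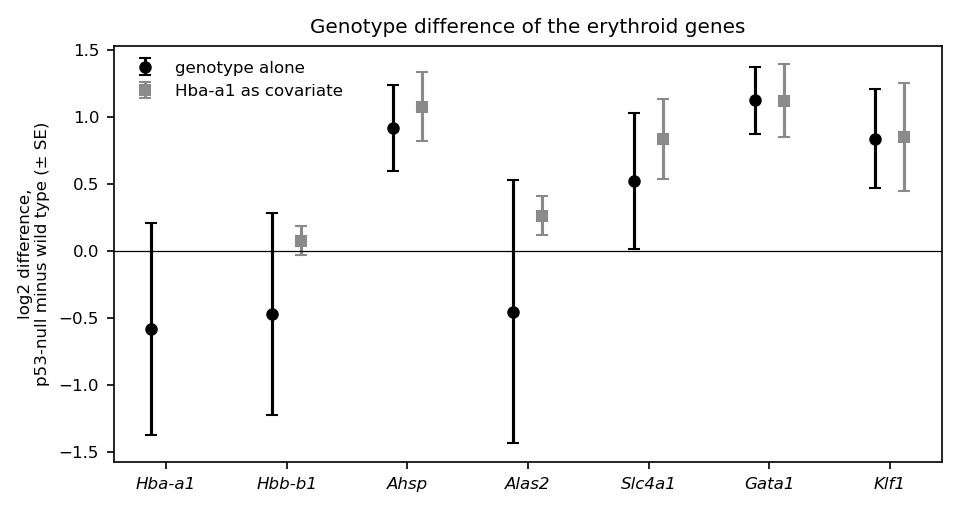
Log2 difference between p53-null and wild-type lung with its SE for 7 tested members, from the fit on genotype alone (circles) and with the Hba-a1 level as a covariate (squares). The SE of Hbb-b1 shrinks from 0.75 to 0.11 and that of Alas2 from 0.98 to 0.15, while Gata1 stays at 1.13.

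Among the 10 genes whose level followed the score most closely across the 10 arrays were Paqr9 (r = 0.94), Thrsp (0.93), Slc2a5 (0.92), Dbi (0.89), Orm1 (0.89), Apol11b (0.89), Serinc3 (0.89), Ptgr2 (0.88) and Bpgm (0.88). These r are descriptions over arrays that share the scaling and the slide ranges. Bpgm, the red cell enzyme that makes 2,3-bisphosphoglycerate, is on the late erythroid list.

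Wider gene lists were compared in the same fit, in which 27.6% of all genes had an unadjusted p under 0.05; the counts at that level below are read against this share. Of 6 tested globin genes, the chaperone included, 0 were called by limma, with a median of -0.16, and 1 passed at an unadjusted p under 0.05, Ahsp. Hbq1a, a theta globin, stood at -0.43 ± 0.45. Of 13 genes of haem synthesis 1 rose and 1 fell, beside 4.59% and 2.89% of all genes. Alad, the second enzyme of the pathway, rose (0.53 ± 0.12, limma adjusted p = 0.0345). Cpox, a late mitochondrial step, fell (-0.76 ± 0.17, limma adjusted p = 0.0313). Both are made in all nucleated cells, unlike Alas2. Alad read 2.54 to 3.01 on wild-type arrays 1 to 4, 3.94 on wild-type array 5 and 3.95 to 4.57 on the p53-null arrays. Cpox read 1.53 to 2.01, 1.07 and 0.766 to 1.04 in the same order. Of 15 red cell membrane and skeleton genes 0 were called by limma and 2 passed at an unadjusted p under 0.05, Epb41 (-0.96 ± 0.30) and Ermap (1.17 ± 0.37). Epb41, protein 4.1 of the membrane skeleton, read 5.42 to 6.77 on wild-type arrays 1 to 4, 2.13 to 2.97 on the p53-null arrays and 2.04 on wild-type array 5, the array that stood apart. Of 20 late erythroid genes 0 were called by limma and 5 passed at an unadjusted p under 0.05, 2 higher and 3 lower, with a median of 0.02. Bnip3l, which clears mitochondria from reticulocytes, stood at -0.29 ± 0.08 (limma adjusted p = 0.0555), and Xpo7 at -0.35 ± 0.10.

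Of 16 erythroid transcription factors and receptor genes 6 rose and 0 fell, beside 4.59% and 2.89% of all genes, with a median of 0.34 beside 0.05 over all genes. Nfe2, a partner of GATA factors at globin and platelet genes, rose by 1.16 ± 0.20 (limma adjusted p = 0.0166). It read 0.293 to 0.469 in wild-type and 0.686 to 1.35 in p53-null lung, with no overlap. Gfi1b, a repressor needed for red cells and megakaryocytes, rose by 1.04 ± 0.18 (limma adjusted p = 0.0185), and Myb, a progenitor factor, by 0.60 ± 0.13 (limma adjusted p = 0.0287). The others were Gata1, Bcl11a (0.90 ± 0.21) and Lmo2 (0.69 ± 0.18), the last pair named after their values were seen. Tal1 was at 0.00 ± 0.10 and Epor, the erythropoietin receptor, at 0.21 ± 0.11. At an unadjusted limma p under 0.05, 11 of the 16 passed, 10 higher and 1 lower, beside 27.6% of all genes. The lower gene was Zfpm1 (-0.38 ± 0.12, limma adjusted p = 0.0787). Cbfa2t3 (-0.30 ± 0.17) and Runx1 (-0.17 ± 0.12) were also lower and did not pass. With each array left out in turn the count was 0 to 8, 0 without p53-null array 3 and 8 without wild-type array 5, and 2 or 3 without any other. It was 0 without the 3 arrays rich in skeletal muscle RNA, and 0 without the 2 arrays of the shared slide. The number of all genes called higher moved too, from 970 of 21116 to 140 without p53-null array 3 and 3604 without wild-type array 5. It was 4 without the 3 muscle-rich arrays and 44 without the 2 arrays of the shared slide.

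Markers of other blood cells were compared in the same samples, against 4.59% of all genes called higher. Of 12 tested platelet markers 3 rose and 0 fell (median 0.85): Gp5 by 1.60 ± 0.25, Itga2b by 1.29 ± 0.27 and Clec1b by 0.99 ± 0.25. Their summed level was 11.6 to 15.8 on wild-type and 13.0 to 26.6 on p53-null arrays, with p53-null array 2 within the wild-type range. Of 12 neutrophil markers 7 rose and 0 fell (median 1.36, summed level 14.4 to 18.8 against 28.8 to 51.9). Among them S100a9 rose by 2.42 ± 0.28. At an unadjusted limma p under 0.05, 8 neutrophil markers were higher and 1 was lower, Lcn2 (-0.32 ± 0.14). The share of all genes at that level was 27.6%. Ltf (-0.17 ± 0.23) was also lower and did not pass. Of 11 B cell markers 8 rose (median 1.23; 14.4 to 26.4 against 35.5 to 67.6), and of 14 T and NK cell markers 7 rose (median 0.70; 6.39 to 10.1 against 11.1 to 15.7). All 12 platelet markers were well above background on all 10 arrays. The part of these cells in the level of Gata1, Nfe2, Gfi1b, Myb, Bcl11a and Lmo2 was not tested. Of 8 markers of proliferating precursors 0 were called by limma and 1 passed at an unadjusted p under 0.05, Rrm2 (0.54 ± 0.19; summed level 3.01 to 5.06 against 3.90 to 6.77).

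Of 21 genes of haem clearance and iron handling 1 was called, beside 7.49% of all genes. Of 12 genes of haemoglobin and haem clearance 0 were called by limma and 3 passed at an unadjusted p under 0.05, all higher. Spic, a factor of red pulp macrophages, stood at 1.19 ± 0.34 (limma adjusted p = 0.0596) and Blvra at 0.19 ± 0.06. Of 9 iron genes Slc11a1, a metal transporter of phagocytes, rose by 0.68 ± 0.14 (limma adjusted p = 0.0245). Of 8 macrophage markers 1 rose (Csf1r, 0.56 ± 0.14) and 1 fell (Marco, -0.77 ± 0.17). Of 10 endothelial markers Plvap fell (-0.40 ± 0.09), and of 10 epithelial and 9 skeletal muscle markers 0 were called by limma and 0 passed at an unadjusted p under 0.05; Cdh1 (-0.16 ± 0.10), Aqp5 (-0.14 ± 0.09), Myh4 (0.78 ± 0.68) and Ckm (0.85 ± 0.78) had the smallest p there.

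**Figure D4:**
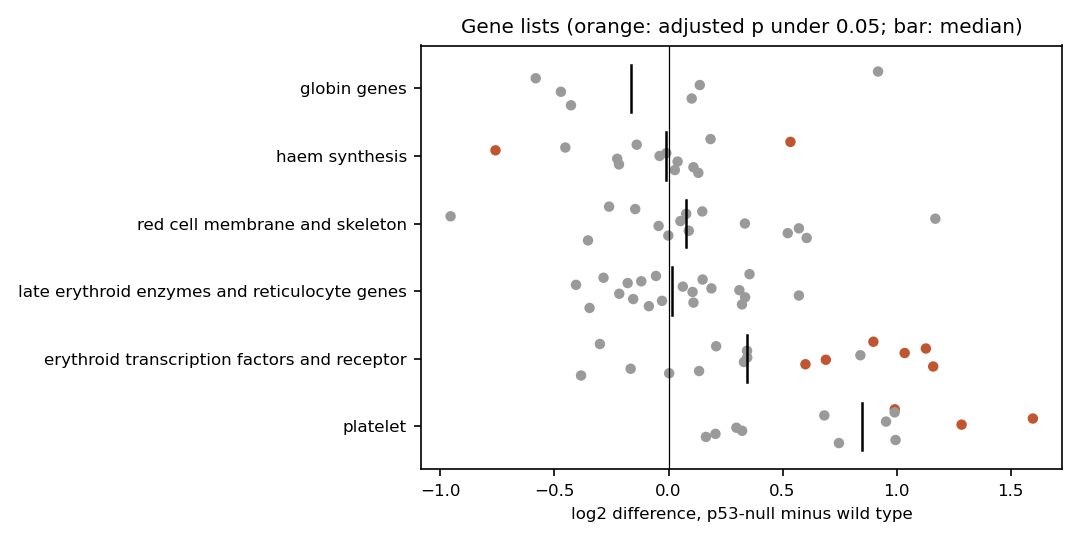
Log2 difference between p53-null and wild-type lung for each tested gene of 5 erythroid lists and the platelet list, with genes that passed (limma adjusted p under 0.05) in orange and the list median as a bar. The medians lie between -0.16 and 0.08 for the globin, haem, membrane and late erythroid lists, at 0.34 for the transcription factors and at 0.85 for platelet markers.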

How the data were processed

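Lung RNA from each mouse was turned into Cy3-labelled cRNA for 1-colour arrays, per the labels' protocols. The scans were read with Agilent Feature Extraction 9.5, as the submitters' processing notes name it. The deposited intensity is background-subtracted, per the file headers, and the value table held the same intensities (largest difference 0; column medians 250.0 to 451.6). From the log2 of each intensity the array's own 75th percentile, taken over 43379 spots that are not controls, was subtracted. Outlier spots were left out, spots of a probe averaged, and each gene was taken from its brightest probe. A gene entered the test if 5 or more of the 10 arrays read it well above background (21116 of 27670). The test was limma 3.58.1 in R 4.3.3 (lmFit, eBayes) with Benjamini-Hochberg adjustment at 0.05. Probe positions are those of the files (mm7), and exons or untranslated regions were not assigned. Symbols were updated through RefSeq tables of GRCm38.p6.

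The members, the gene lists and the tests were chosen with earlier results of these data known, so p-values for them are not independent evidence. Each list's called genes were ranked by p and at most 4 named; a list with no call has its 2 top-ranked genes named. The 10 genes most like the score were also named. Correlations used 100000 permutations. Other settings changed the background correction, the scaling, the filter, how probes were combined, blocks (slide, scan day, replicate number), variance model, weights and thresholds, or left arrays out. The Hba-a1 covariate, the fits within a slide range and the fit without the shared slide were added after seeing the data. Slide ranges are ranges of slide numbers in the files. The code was tested on simulated data. The number of arrays limits the precision. Items that the naming rules would name, 1 member among them, are not reported here, though counts, medians and the score include them.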

Additional observations from a re-analysis of the deposited data

How the results depend on the processing

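The direction of Gata1, Ahsp, Slc4a1 and Klf1 was the same in every alternative that gave them a value, but sizes moved: Slc4a1 ran from 0.21 (within the lower slide range) to 0.84 (Hba-a1 as a covariate), with 0.27 without wild-type array 4, 0.81 without p53-null array 2, 0.30 without p53-null array 1 and 0.33 without wild-type array 3. Klf1 was 0.43 with normexp and 1.44 without the 3 arrays rich in skeletal muscle RNA, and Ahsp 0.49 within the higher slide range. Counts below are of members called, of erythroid transcription factors called higher and of all genes called, followed by the Gata1 difference. They were 0, 2, 538 and 1.13 with no filter on dim genes, and 0, 3, 697 and 1.10 when blocking on slide range. They were 0, 2, 322 and 0.97 with scan day as a block, which equals leaving out wild-type array 3. They were 0, 0, 10 and 1.30 without the 3 arrays rich in skeletal muscle RNA. They were 0, 0, 59 and 1.21 without the 2 arrays of the shared slide, and 0, 0, 16 and 1.03 within the lower slide range. Within the higher range, with 1 p53-null array, the Gata1 difference was 1.27. With slide as a fixed block only the shared slide held both genotypes, with 1 array of each. That fit therefore gave the difference on the shared slide, 0.80 for Gata1. All genes called numbered 583 with median scaling, 999 with the mean of all probes and 6510 with array weights. At an unadjusted p under 0.05, 3 members and 5827 genes passed, and at an adjusted p under 0.01, 0 and 56. With Hba-a1 as a covariate 2 members were called.

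Leaving out 1 array gave 0 to 1 members, 0 to 8 transcription factors, 192 genes (without p53-null array 3) to 6619 (without wild-type array 5) and a Gata1 difference of 0.97 to 1.30. Without p53-null array 2 Hba-a1, Hbb-b1 and Alas2 turned to 0.10, 0.18 and 0.32, from the other end of the range at -1.04, -0.91 and -1.06 without wild-type array 4; with Hba-a1 as a covariate Hbb-b1 and Alas2 were at 0.079 and 0.27. The cause of these changes was not tested.

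The replicate numbers are not given as pairs: same-numbered arrays' deviations correlated at -0.22 to 0.00, and the fit with a replicate block called 0 members, 0 transcription factors and 26 genes, with Gata1 at 1.13. The dim signals of Klf1 and Epb4.2, near background, limit what can be said of them.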
